A study of Mus musculus with 10 samples.

Results

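Complex II (succinate dehydrogenase), complex III (the cytochrome bc1 complex) and complex V (ATP synthase) are parts of the oxidative phosphorylation machinery of the inner mitochondrial membrane, and the transcripts of their nuclear genes are described here in cochleae of mice whose mitochondrial DNA polymerase lacks proofreading. The members are 30 listed genes: 4 subunits of complex II, 9 of complex III and 15 of complex V, together with Cycs, which encodes cytochrome c, and Bcs1l, which encodes an assembly factor of complex III. Cycs and Bcs1l are not subunits. Members were found by gene symbol, 14 of them under an older name on the platform (Atp5f1a as Atp5a1, for example), among 18194 genes with a probe set of their own. All 30 had at least 1 probe set, 60 in all. The probe set with the highest mean signal stands for its gene, and the gene's other probe sets are set beside it.

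The study compared total RNA from the cochlea, the hearing organ of the inner ear, of male mice aged 9 months: 5 samples from Polg+/+ mice (wild-type) and 5 from PolgD257A/D257A mice (D257A), each on 1 Affymetrix array. The D257A allele changes the exonuclease domain of Polg, which copies mitochondrial DNA, in every tissue that expresses it, and mutations then accumulate in mitochondrial DNA. Both groups were kept in the same animal facility on the same diet, and the labels name no drug or other agent. Whether a sample is 1 animal or a pool is not given in the sources used here, and the submitters state that they made no replicates, so n counts arrays and p-values measure the spread between these samples, which may be partly technical.

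Complex II oxidises succinate in the tricarboxylic acid cycle and passes the electrons to ubiquinone, and all its subunits are made from nuclear genes. Complex III moves electrons from ubiquinol to cytochrome c and pumps protons, and its cytochrome b is made from mitochondrial DNA. Complex V lets protons flow back through a rotor ring of c subunits to drive ATP synthesis in the F1 head, and its a and A6L subunits are made from mitochondrial DNA. Complexes III and V therefore need subunits from both genomes, while complex II needs the nuclear one only. In the cochlea, the stria vascularis, whose cells are rich in mitochondria, uses ATP to maintain the endocochlear potential.

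Some promoters of these genes hold letters of known factor sites, which the choice of members did not use and whose frequency was not tested. RefSeq promoter windows on GRCm38.p6, from 250 bases before to 50 bases after a gene's start, were matched by gene ID for 24 members; Sdhc, Uqcrc2, Uqcrb, Uqcrq, Cyc1 and Atp5f1a had no entry. The letters GCATGCGC, a core of the site of NRF1, a transcription factor of respiratory chain genes, were searched on both strands and occurred in 7 of the 24 (29.17%): Sdhb, Uqcrc1, Uqcr11, Cycs, Atp5mc2, Atp5me and Atp5mg. The same letters occurred in 3.93% of 17491 protein-coding genes and in 3.05% of all 27025 genes with a window. In Uqcrc1, Atp5mc2 and Atp5me both orientations overlap. CCGGAAGT, a core of ETS family sites, occurred in 4 members (16.67%, against 5.69% of protein-coding genes) and AAGATGGC, a core of YY1 sites, in 3 (12.5% against 3.57%). A match describes the letters only and is not evidence of binding.

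The 80 bases before the start are printed for the 4 members whose NRF1 letters lie wholly within that stretch and for Uqcrh, the member with the smallest p-value, which holds the ETS letters. Each reads 5′ to 3′ on the gene's strand, with the matched letters in capitals; overlapping matches on both strands are capitalised together. Sdhb lies at chr4:140961191-140961270 (plus strand), Cycs at chr6:50566570-50566649 (minus strand), Atp5mc2 at chr15:102671048-102671127 (minus strand), Atp5me at chr5:108434400-108434479 (minus strand) and Uqcrh at chr4:116075071-116075150 (minus strand).
Sdhb: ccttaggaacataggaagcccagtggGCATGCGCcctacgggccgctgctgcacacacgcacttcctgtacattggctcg
Cycs: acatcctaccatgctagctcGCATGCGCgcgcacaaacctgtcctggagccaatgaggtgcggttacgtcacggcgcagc
Atp5mc2: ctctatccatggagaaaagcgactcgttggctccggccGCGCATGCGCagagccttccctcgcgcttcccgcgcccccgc
Atp5me: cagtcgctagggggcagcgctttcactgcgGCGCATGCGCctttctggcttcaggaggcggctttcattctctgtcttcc
Uqcrh: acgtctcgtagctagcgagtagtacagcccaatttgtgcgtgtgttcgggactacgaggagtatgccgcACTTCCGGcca
The median log2 fold change was 0.09 over the 7 with a match (5 positive) and 0.06 over the 17 without one (10 positive). Among the 4 members with the ETS letters 2 were positive and the median was -0.07, against 13 positive and 0.08 over the 20 without them. All 3 members with the YY1 letters (Atp5mf, Atp5pb and Atp5pf) were positive (median 0.13), as were 12 of the 21 without them (median 0.06). The other tested probe sets were negative for Atp5mf (-0.05 and -0.22) and for Atp5pb (-0.06). The differences between members with and without a match were not tested.

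The arrays carried a trimmed mean signal of 1494 to 1496 each, the correlation of log2 signals between 2 arrays ranged from 0.854 to 0.951, and wild-type replicate 3 and D257A replicate 2 were least correlated with their own group (mean r of 0.914 and 0.89). Of 16 cochlear markers with a probe set, the spiral ligament gene Coch (signal 65511 to 83744 in wild-type and 57563 to 80130 in D257A) and 12 others were in the tested range, while Tecta, Pou4f3 and the outer hair cell motor gene Slc26a5 were below it. Markers of other tissues differed between the groups. Of 19 tested skeletal muscle markers 8 were called lower in D257A and 0 higher, with summed signals of 20 markers from 245729 to 715061 in wild-type and from 28196 to 345470 in D257A. Of 10 tested gland and mucosa markers 8 were called lower, with sums of 192783 to 508219 and 72358 to 112539. Of 8 tested adipocyte markers 3 were called lower (sums 92842 to 140140 and 47064 to 124478). The 2 adipocyte markers with positive estimates were Ucp1 (log2 fold change 0.96) and Elovl3 (1.13), neither of them called. Of 10 neutrophil markers 2 were called higher and 1 lower (109122 to 183255 and 109753 to 318401). The lower one was Ltf, which also counts among the 8 gland and mucosa markers called lower, and the other 9 neutrophil markers had positive estimates. None of 8 neuronal and none of 2 tested erythroid markers was called. No marker was listed at 0 on any array.

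None of the 30 members passed the test. Signals were compared as log2(signal + 16) with limma over the brighter 22518 of 45037 probe sets, with Benjamini-Hochberg adjustment, and a gene was called at an adjusted p of at most 0.05. All 30 brightest probe sets were among those tested, the lowest single signal being 600.5 (Bcs1l). The count of 0 stands against 2.32% of 11871 genes called over the whole array. The smallest adjusted p among members was 0.232 (Uqcrh), and 0 members passed at an adjusted p of 0.1. An unadjusted p under 0.05 was reached by 2 members, Uqcrh and Atp5po, both lower in D257A, against 16.7% of all tested genes. No member had D257A values wholly outside the wild-type range, against 5.29% of genes.

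The estimates were small in both directions. Among the 30 members, 19 had a positive log2 fold change (D257A over wild-type) and 11 a negative one, with a median of 0.07, a mean of -0.01 and a range from -0.52 (Atp5po) to 0.46 (Atp5me); the median over all tested genes was -0.02. The median size regardless of sign was 0.157 for members and 0.212 for all tested genes. The sign of the members' median depended on the processing and on the arrays included. The members' median was -0.04 with each array centred on its own median, which moved the median of all tested probe sets to -0.101. Under quantile normalization it stayed positive at 0.003. It was -0.02 with array weights, -0.0027 without D257A replicate 2 and -0.0054 without D257A replicate 5. The precision of 5 arrays a group left 26 of the 30 unadjusted 95% intervals wholly inside a 2-fold change either way and 13 inside a 1.5-fold change. The 4 wider ones were those of Sdhd, Uqcrc1, Atp5me and Atp5po.

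**Figure D1:**
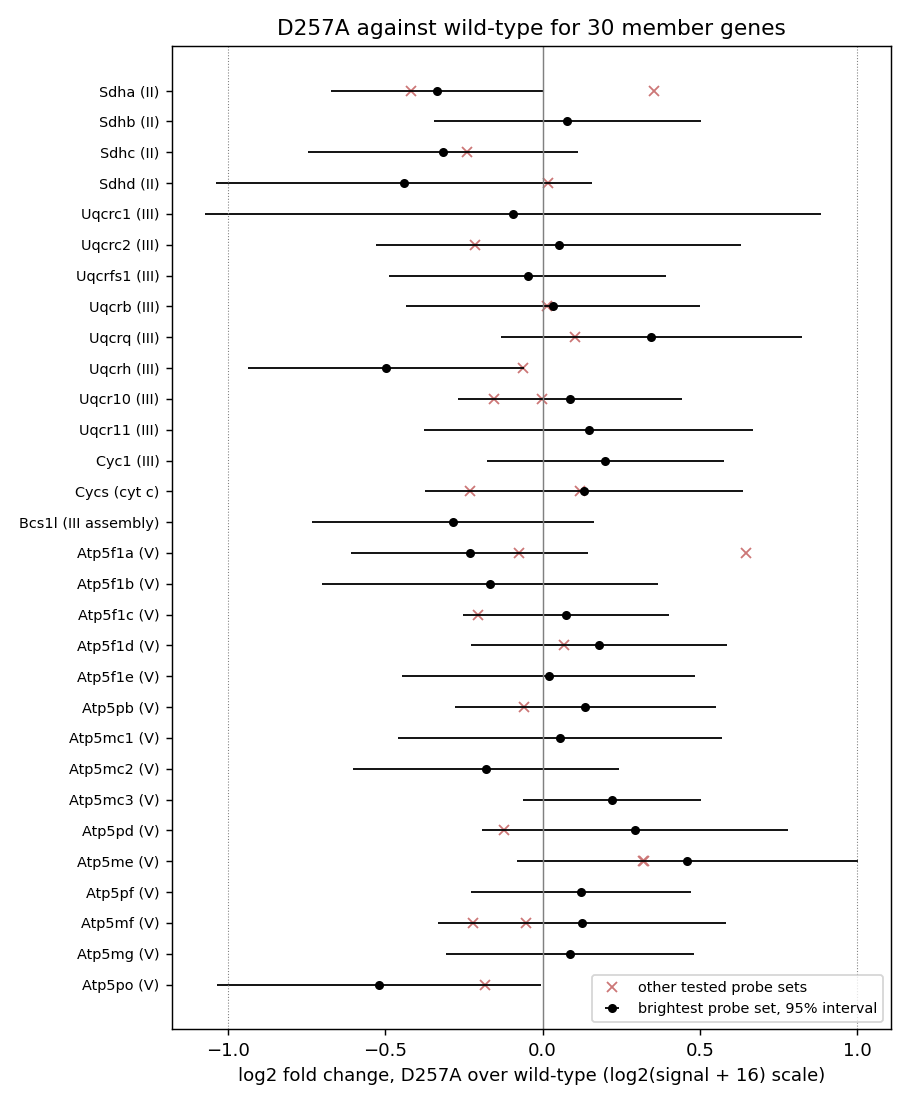
Log2 fold change of each member gene, D257A over wild-type, on the log2(signal + 16) scale (x axis), with genes and their complex on the y axis. Black points are the brightest probe sets with unadjusted 95% intervals (5 arrays a group), crosses are the gene's other tested probe sets, and dotted lines mark a 2-fold change. All but 2 intervals, those of Uqcrh and Atp5po, include 0.

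Among the 3 complexes, complex II had the median estimate of the largest size. Of its 4 subunits 3 were lower in D257A and 1 higher, none called, with a median log2 fold change of -0.33 that stayed negative in all 21 other settings (-0.43 with median-centred arrays, -0.34 under quantile normalization, -0.22 without D257A replicate 2 and -0.17 with averaged probe sets). Sdha, the flavoprotein that holds the succinate site, measured 28157, 28266, 19200, 28358 and 28383 in wild-type replicates 1 to 5 and 24921, 20735, 21280, 20000 and 17480 in D257A replicates 1 to 5. The D257A arrays all lay below 4 of the wild-type arrays, and wild-type replicate 3 alone fell among them. The limma fit for Sdha gave a log2 fold change of -0.34 (95% interval -0.67 to 0.0019, adjusted p = 0.298). Leaving out 1 array gave from -0.447 (without wild-type replicate 3, adjusted p = 0.112) to -0.274 (without D257A replicate 5, adjusted p = 0.493). Of the other tested probe sets of Sdha, a bright one gave -0.42 (adjusted p = 0.228) and a dim one, with group means of 992 and 1296, gave 0.36.

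Sdhc and Sdhd, which anchor the complex in the membrane, had wider spreads. Sdhd measured 14173, 8395, 6161, 11544 and 12649 in wild-type and 11482, 4397, 8118, 8460 and 6650 in D257A, in replicate order (log2 fold change -0.44, 95% interval -1.04 to 0.16, adjusted p = 0.448). The lowest array of each group, wild-type replicate 3 and D257A replicate 2, are the arrays least like their group, and the second tested probe set of Sdhd gave 0.02. Sdhc gave 10961, 9431, 7908, 8459 and 11234 in wild-type and 9510, 5378, 10510, 7478 and 6431 in D257A (log2 fold change -0.32, 95% interval -0.75 to 0.11, adjusted p = 0.45), with D257A replicates 1 and 3 inside the wild-type range and replicates 2, 4 and 5 below it. Its second probe set had the same sign (-0.24). Sdhb, the iron-sulphur subunit, had group means of 24333 ± 3076 and 26441 ± 7926 (± SD of 5 arrays each; log2 fold change 0.08, 95% interval -0.35 to 0.50, adjusted p = 0.884). Its D257A arrays divided, with 33939 and 36096 in replicates 4 and 5 and 19144 to 21539 in the others, so the subunits of this complex did not move together across D257A arrays. Levels of different genes are not compared here, since probe sets differ in brightness for the same amount of RNA. In whole cochlea, fewer cells of a type, less RNA per cell and a different amount of muscle, gland or fat RNA cannot be told apart.

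**Figure D2:**
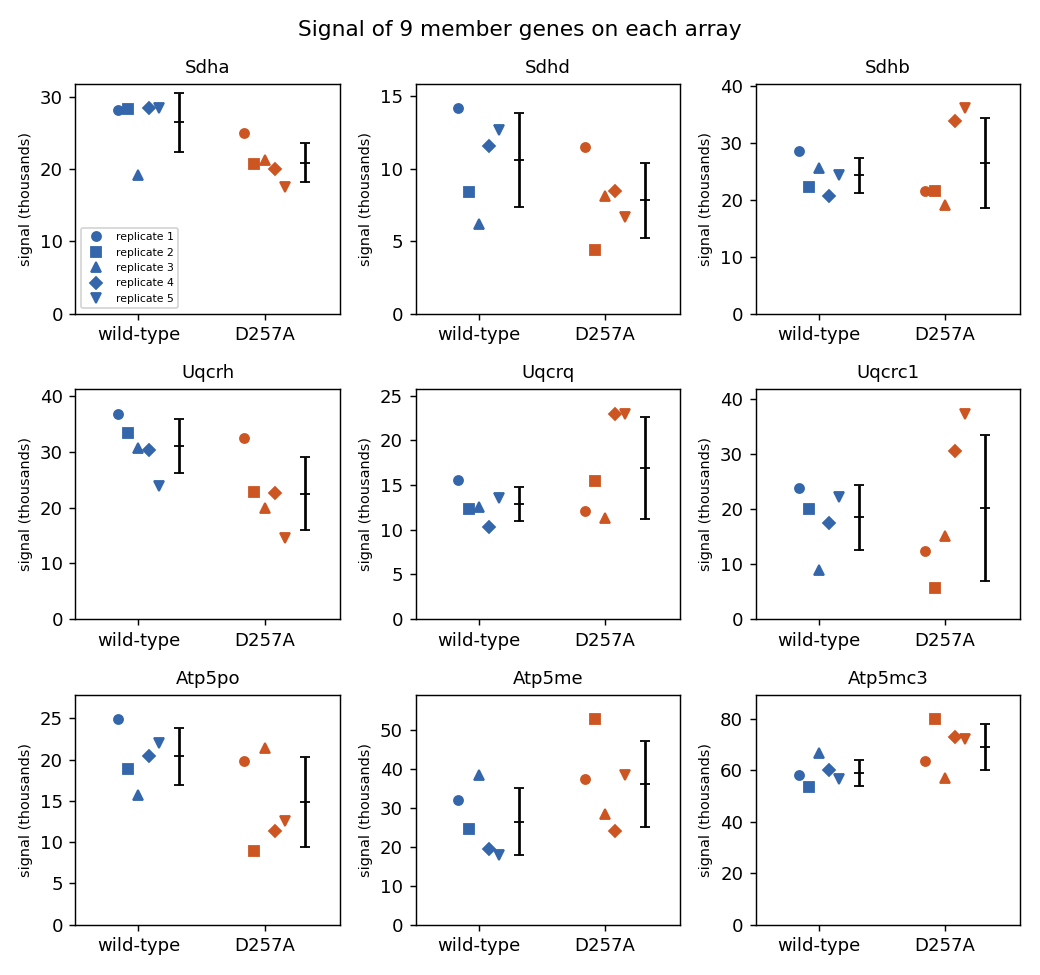
Linear signal (y axis, from 0) of 9 member genes on the 5 wild-type (blue) and 5 D257A (orange) arrays, with 1 marker shape per replicate number and the group mean ± SD in black. The groups overlap for each gene, and the D257A arrays of Sdhb, Uqcrq and Uqcrc1 divide, with replicates 4 and 5 highest.

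Complex III had 6 positive and 3 negative subunits with a median log2 fold change of 0.05, which turned to -0.05 with median-centred arrays, -0.02 with array weights or averaged probe sets, and -0.01 without D257A replicate 2. Uqcrh, the hinge subunit that helps cytochrome c bind cytochrome c1, gave the smallest p of any member. It measured 36861, 33465, 30724, 30419 and 23899 in wild-type and 32597, 22907, 19948, 22627 and 14486 in D257A, in replicate order. Of the 5 D257A arrays 4 were below every wild-type array, and D257A replicate 1 stood above all wild-type arrays but replicates 1 and 2. The limma fit gave a log2 fold change -0.50, 95% interval -0.94 to -0.06, adjusted p = 0.232. The second probe set of Uqcrh gave -0.06 (adjusted p = 0.917), so the 2 probe sets did not give the same size.

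Uqcrq, a small subunit beside cytochrome b, measured 15566, 12363, 12527, 10296 and 13533 in wild-type and 12086, 15441, 11296, 22991 and 22959 in D257A (log2 fold change 0.35, 95% interval -0.13 to 0.82, adjusted p = 0.46). D257A replicates 4 and 5 were above all other arrays, and D257A replicates 1 to 3 lay inside the wild-type range. Cyc1, the heme-bearing cytochrome c1, gave 32144, 25664, 30328, 24276 and 27338 in wild-type and 25946, 42684, 24135, 33224 and 37379 in D257A (log2 fold change 0.20, 95% interval -0.18 to 0.58, adjusted p = 0.606). Its 2 lowest arrays came 1 from each group, D257A replicate 3 and wild-type replicate 4. The core subunit Uqcrc2 measured 21060, 15608, 19656, 12032 and 15104 in wild-type and 17185, 33104, 12132, 11520 and 17625 in D257A. A single array, D257A replicate 2, was above all others, and the fit gave 0.05 (adjusted p = 0.948), which became -0.19 without that array; the second probe set gave -0.22. Uqcr10, a small accessory subunit, measured 12827, 10316, 12143, 11232 and 11803 in wild-type and 10327, 16229, 9563, 13902 and 12908 in D257A, with an estimate of 0.09 and opposite signs in its 2 other probe sets (-0.16 and -0.0025).

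The remaining complex III members are given by their ranges. Uqcrc1, the other core subunit, ranged from 8861 to 23879 in wild-type and from 5590 to 37348 in D257A, the widest interval of any member (log2 fold change -0.09, 95% interval -1.07 to 0.89, adjusted p = 0.942). The sign of its estimate changed with single arrays, from -0.391 without D257A replicate 5 to 0.294 without D257A replicate 2. Uqcrfs1, the Rieske iron-sulphur protein, ranged from 16013 to 20304 and from 11991 to 27258 (log2 fold change -0.05), Uqcrb from 63395 to 80767 and from 44611 to 118188 (0.03), and Uqcr11 from 7954 to 12752 and from 8606 to 19359 (0.15). In each of these 4 genes the D257A range was the wider one.

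Cycs and Bcs1l serve complex III without being part of it. Cycs, whose product carries electrons to complex IV and also triggers the apoptosome when released, measured 36063, 27910, 55212, 34509 and 26872 in wild-type and 33876, 57938, 32364, 28517 and 44844 in D257A (log2 fold change 0.13, 95% interval -0.37 to 0.64, adjusted p = 0.827). The highest array of each group was the one least like its group, wild-type replicate 3 and D257A replicate 2. Its other tested probe sets gave -0.23 and 0.12. Bcs1l, the AAA protein that inserts the Rieske protein, measured 1124, 951, 919, 1044 and 1100 in wild-type and 1155, 1036, 885, 650 and 600 in D257A (log2 fold change -0.28, 95% interval -0.73 to 0.16, adjusted p = 0.521). D257A replicates 4 and 5 were below all other arrays and replicate 1 was the highest of all 10.

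Complex V had 11 positive and 4 negative subunits and a median log2 fold change of 0.09 (-0.01 with median-centred arrays). Atp5po, the OSCP subunit that joins the F1 head to the peripheral stalk, had the most negative estimate of any member. It measured 24891, 18888, 15704, 20481 and 21967 in wild-type and 19873, 8967, 21418, 11375 and 12581 in D257A. D257A replicates 2, 4 and 5 were below every wild-type array, while replicates 1 and 3 lay inside the wild-type range. The fit gave a log2 fold change -0.52, 95% interval -1.04 to -0.005, adjusted p = 0.291, and its second probe set gave -0.18.

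Atp5me, the e subunit at the dimer interface, had the most positive one: 31843, 24398, 38301, 19438 and 17967 in wild-type and 37424, 52636, 28346, 23948 and 38335 in D257A. The groups overlapped, with wild-type replicate 3 above 3 D257A arrays (log2 fold change 0.46, 95% interval -0.08 to 1.003, adjusted p = 0.377). Both other probe sets of Atp5me had the same sign (0.32 each). Atp5pd, the d subunit of the peripheral stalk, measured 33766, 25491, 45278, 27140 and 28032 in wild-type and 37820, 56764, 40395, 23970 and 39660 in D257A (log2 fold change 0.29, 95% interval -0.19 to 0.78, adjusted p = 0.544), and its other probe set gave -0.12. Atp5mf, the f subunit, measured 34227, 27474, 42822, 28261 and 29637 in wild-type and 32535, 54482, 33788, 23255 and 37433 in D257A, an estimate of 0.13 against -0.05 and -0.22 in its other probe sets. For Atp5pb, the b subunit, the values were 28879, 23609, 36788, 24184 and 24264 in wild-type and 29390, 42371, 23584, 23986 and 33471 in D257A, with 0.14 against -0.06. These 3 genes shared an order of arrays: D257A replicate 2 was highest and wild-type replicate 3 came second.

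No subunit of the catalytic head or its stalk passed the test. Atp5f1a, the alpha subunit, measured 41196, 40586, 30142, 37235 and 44673 in wild-type and 30552, 24504, 32629, 45381 and 33889 in D257A (log2 fold change -0.23, 95% interval -0.61 to 0.15, adjusted p = 0.539). D257A replicate 2 was lowest and D257A replicate 4 highest of all arrays, and the other probe sets gave -0.07 (bright) and 0.65 (dim, group means 1308 and 2132; adjusted p = 0.404). Atp5f1c, the gamma subunit of the rotor shaft, measured 29919, 24959, 23366, 25434 and 24919 in wild-type and 24622, 32738, 20758, 30758 and 27941 in D257A (0.08; -0.21 in its dim second probe set). Atp5f1b, the beta subunit that holds the catalytic sites, ranged from 28831 to 51217 and from 22162 to 58648 (log2 fold change -0.17, 95% interval -0.70 to 0.37, adjusted p = 0.784). Atp5f1d and Atp5f1e, the delta and epsilon subunits of the central stalk, had estimates of 0.18 and 0.02, and the F6 and g subunit genes Atp5pf and Atp5mg of 0.12 and 0.09, with adjusted p of 0.68 to 0.979 for these 4.

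Atp5mc1, Atp5mc2 and Atp5mc3 encode the same mature c subunit with different import sequences. Atp5mc1 measured 19258, 13378, 9703, 10979 and 17437 in wild-type and 12793, 10992, 11314, 21290 and 17123 in D257A, Atp5mc2 13316, 12239, 12572, 12222 and 14981 in wild-type and 9905, 8256, 9877, 15199 and 16339 in D257A. For Atp5mc3 the values were 58227, 53385, 66670, 60234 and 56834 in wild-type and 63878, 79930, 56914, 72896 and 72198 in D257A (log2 fold change 0.22, 95% interval -0.06 to 0.51, adjusted p = 0.421). For Atp5mc3, D257A replicates 2, 4 and 5 were above all wild-type arrays, and the other D257A arrays lay within the wild-type range. The limma fit gave a log2 fold change of 0.06 for Atp5mc1 (adjusted p = 0.934) and of -0.18 for Atp5mc2 (adjusted p = 0.692). The log2 ratio of Atp5mc2 to Atp5mc3 within an array was -2.18 ± 0.185 over the 5 wild-type arrays and -2.58 ± 0.444 over the 5 D257A arrays (± SD), a difference of -0.40 with a two-sided exact permutation p of 0.0873 (0.262 adjusted over 3 ratios; the smallest p possible is 0.00794). The ratio of Atp5mc1 to Atp5mc2 differed by 0.24 (exact permutation p = 0.222) and that of Atp5mc1 to Atp5mc3 by -0.17 (exact permutation p = 0.548). No shift of use between the 3 genes was detectable with 5 arrays a group.

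Probe sets of 1 gene often differed in sign. Of the 60 probe sets of the members 53 were tested and 7 were too dim, and none of the 53 was called; 28 were positive. Of 17 genes with over 1 tested probe set, 10 had a probe set of the opposite sign to the brightest: Sdha, Sdhd, Uqcrc2, Uqcr10, Cycs, Atp5f1a, Atp5f1c, Atp5pb, Atp5pd and Atp5mf. Among the brightest probe sets 15 were of the plain type, 9 had the suffix a (all probes within transcripts of 1 gene) and 6 the suffix s (probes shared with transcripts of another gene or copy). Those with the suffix s were Uqcrq, Atp5f1c, Atp5f1d, Atp5f1e, Atp5pb and Atp5mf, all with positive estimates. The tested plain probe sets were negative for Atp5f1c, Atp5pb and Atp5mf and positive for Uqcrq (0.10). Cycs has processed pseudogenes, and signal from near-identical copies was not tested.

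Members varied more among D257A arrays than among wild-type arrays. The SD of log2 signals was larger in D257A for 26 of 30 members (86.7%), against 67.1% of all tested genes, with medians of 0.416 in D257A and 0.228 in wild-type for members and of 0.343 and 0.272 for all tested genes. All 9 complex III subunits had the larger SD in D257A, while Sdha, Cycs, Atp5mc1 and Atp5me had the smaller one. The larger spread was not particular to the members. On the linear scale, the SD was also larger in D257A for each listed complex I subunit with a probe set but Ndufs1. For complex IV the same held for each listed subunit with a probe set but Cox4i2. A linear SD also depends on the level of a gene, so these listings are not comparable with the log2 shares above. Among the members, Sdhd had the larger SD in D257A on the log2 scale and the smaller one on the linear scale (2598 against 3257 in wild-type). Members share arrays, so these shares are a description and carry no test.

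**Figure D3:**
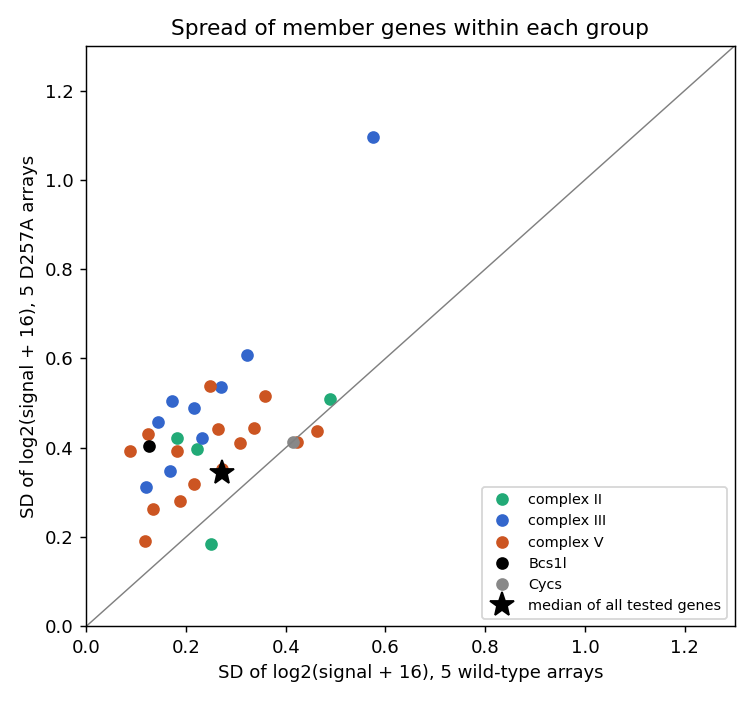
SD of log2(signal + 16) over the 5 D257A arrays (y axis) against that over the 5 wild-type arrays (x axis), 1 point per member gene coloured by complex, with the line of equality and a star at the median of all tested genes. Of the 30 points 26 lie above the line, with Uqcrc1 farthest from the origin.

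Single arrays lay at the ends of the spread within a group, in opposite directions for different members. D257A replicate 2 was the highest of the 10 arrays for 15 members, among them Uqcrc2, Uqcrb, Cyc1, Cycs, Atp5pd, Atp5me and Atp5mf, and the lowest for 7: Sdhc, Sdhd, Uqcrc1, Atp5f1a, Atp5f1b, Atp5mc2 and Atp5po. Together that is 22 of 30 members (73.3%), against 37.3% of all tested genes. Among the 5 wild-type arrays alone, replicate 3 was highest for 9 members and lowest for 13. That is also 73.3% of members, against 60% of all tested genes. Both D257A replicates 4 and 5 were above the other 8 arrays for Sdhb, Uqcrc1, Uqcrq, Uqcr11 and Atp5mc2 (16.7% of members, 9.91% of tested genes) and below them for Bcs1l and Atp5mg (6.67% and 7.4%). These arrays were singled out after their values were seen. Quality measures of the arrays were not used here, and the part of RNA quality in this pattern was not tested.

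**Figure D4:**
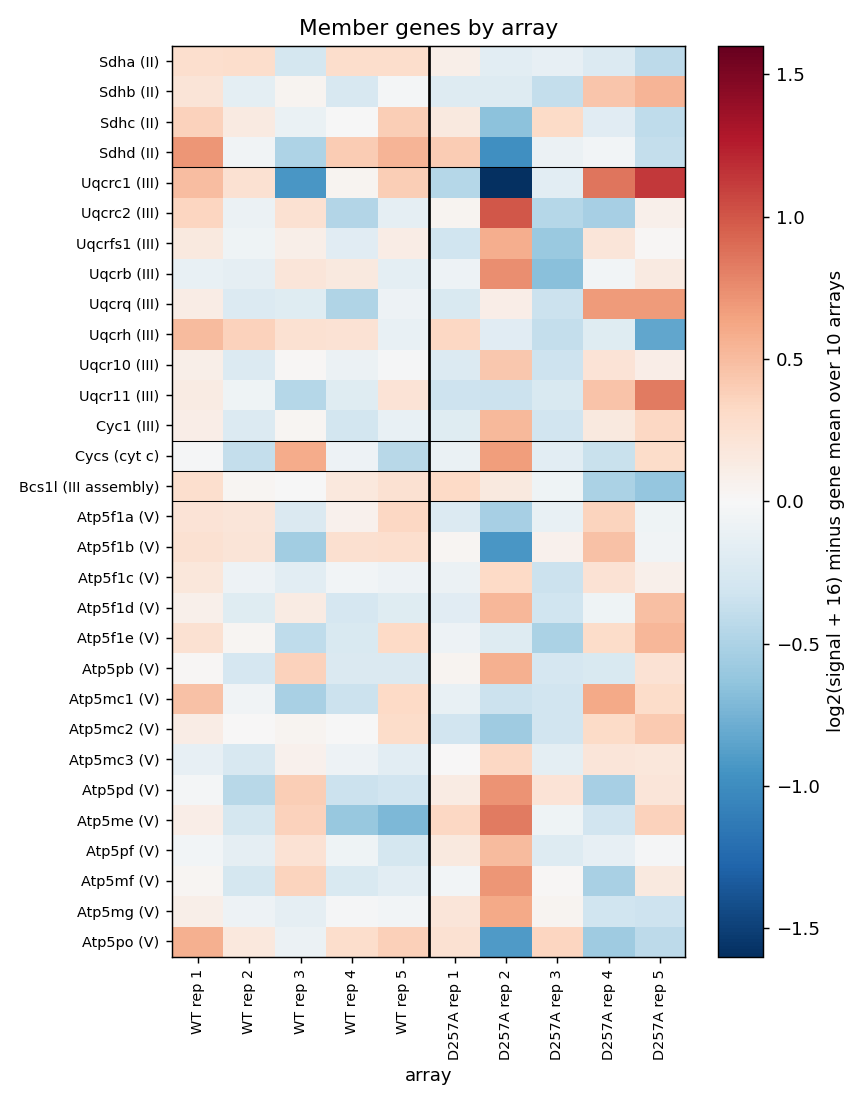
Log2(signal + 16) of each member gene minus its mean over the 10 arrays (colour scale), with genes grouped by complex on the y axis and arrays on the x axis (5 wild-type left, 5 D257A right of the line). D257A replicate 2 is highest for 15 genes and lowest for 7, and no gene separates the groups.

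As a sum, member signals overlapped between the groups. The summed signal of the 30 brightest probe sets was 701115 to 817348 in wild-type and 649474 to 916532 in D257A, and the mean centred log2 signal was -0.0892 to 0.193 and -0.197 to 0.119. For complex II the mean centred log2 signal was -0.209 to 0.386 in wild-type and -0.505 to 0.112 in D257A, for complex III -0.143 to 0.204 and -0.387 to 0.276, and for complex V -0.126 to 0.144 and -0.126 to 0.138. The skeletal muscle markers, also rich in respiratory transcripts as a tissue, had a mean centred log2 signal of 0.313 to 1.92 in wild-type. In D257A replicates 1 to 5 they had -2.12, -0.405, -1.84, -3.08 and 0.505, while the members had -0.0238, 0.056, -0.197, 0.0236 and 0.119. In wild-type replicates 1 to 5 the muscle markers had 1.92, 1.52, 0.313, 1.35 and 1.84. The members had 0.193, -0.0681, -0.0406, -0.0892 and 0.0271 on the same arrays. Complex II had 0.386, 0.0542, -0.209, 0.105 and 0.298 in wild-type replicates 1 to 5. In D257A replicates 1 to 5 complex II had 0.112, -0.505, -0.0758, 0.000576 and -0.167. The part of muscle, gland and fat RNA in the members' values was not tested.

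Other genes of the same pathway also held no call, against 2.32% of all tested genes. At that share, lists of this size can hold no call without differing from the rest of the array. Of 15 tested genes for assembly and regulation of complexes II, III and V, 10 were positive and 5 negative (median log2 fold change 0.19, none called). Among these, Sdhaf1, an assembly factor of complex II, had 0.38 (adjusted p = 0.233), and Uqcc1, of complex III, had -0.81 (adjusted p = 0.121). None of 33 tested complex I subunits (24 positive, median 0.17) and none of 13 tested complex IV subunits (9 positive, median 0.18) passed the test. The subunits with the smallest p were Ndufb1 (0.80, adjusted p = 0.0587) and Ndufa9 (-0.89, 0.209) in complex I, and Cox6a2, the heart and muscle isoform, (-2.38, 0.0594) and Cox6a1 (0.44, 0.241) in complex IV.

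General mitochondrial genes gave a median log2 fold change of 0.05 over 10 tested (6 positive, none called), with Slc25a5, an ADP/ATP carrier, at 0.35 (adjusted p = 0.24) and the import receptor Tomm20 at 0.48 (0.246). Regulators of respiratory genes divided evenly, 4 positive and 4 negative, none called. Nrf1 itself had 0.23 (adjusted p = 0.467) and the partner of the ETS factor Gabpa, Gabpb1, had -0.32 (0.328).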

How the data were processed

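The authors deposited linear intensity, 1 value for each probe set on each array. GCOS 1.3 is the software named in the submitters' processing notes, and biotin-labelled cRNA was hybridised per the labels' protocols. How background was removed, probes were combined and arrays were scaled is not stated in the sources used here, but trimmed means were nearly equal. Of 45101 probe sets, 64 controls were left out, and 34945 of the rest had 1 gene on the platform table. Genes were matched by Entrez ID, with older symbols updated through RefSeq (GRCm38.p6).

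Signals were taken as log2(signal + 16), so differences of dim genes are understated. The brighter 22518 probe sets entered a limma model (version 3.58.1, R 4.3.3) with group as its only term, an intensity trend in eBayes, two-sided tests and Benjamini-Hochberg adjustment over every tested probe set. Ratios were compared by exact permutation over 252 splits. The model code was tested on simulated data.

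Members and lists were chosen with earlier results of these data known. Array values are given for the 3 members of each complex with the smallest p, Cycs, Bcs1l, the c subunit genes and genes whose tested probe sets differ in sign, and pathway lists name the 2 genes with the smallest p. Sdhb, Uqcrc1 and Atp5f1b were singled out after their values were seen. No scan date was used, so no batch was tested. Alternatives are given at the end.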

Additional observations from a re-analysis of the deposited data

Results flagged for a closer look

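In 66 groups of 5 values (30 members and 3 ratios in both genotypes), 3 held 1 array set apart from the other 4 by most of the group's range; chance alone gives about 1 in 20 such groups. Wild-type replicate 3 was low for Sdha (19200.3, others 28157 to 28383) and for Atp5f1b (28831.4, others 48720 to 51217). D257A replicate 2 was high for Uqcrc2 (33103.5, others 11520 to 17625). Both arrays also had the lowest mean correlation within their genotype.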

How the results depend on the processing

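No member was called under any of the 21 other settings, and 15 of the 30 members kept their sign in each setting that tested them (Bcs1l was not tested among the brightest 30%). The count of all called probe sets (513) was 322 among the brightest 30%, 1217 with array weights, 188 with the replicate block, 1076 at an adjusted p of at most 0.1, and 168 to 574 when arrays were left out. The replicate numbers did not pair the samples (same-number correlations from -0.337 to 0.183; 1 of 5 numbers matched best with its own), and the block called no member.

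The sign of the log2 fold change turned for the other 15 members, Atp5f1a (-0.23) and Atp5f1b (-0.17) having the largest estimates among them. Apart from median centring, the cause was not tested. Centring each array on its median lowered the estimate of every gene by the same amount. The median of all tested probe sets went from -0.0005 to -0.101. The estimates were then -0.0221 for Sdhb, -0.0497 for Uqcrc2, -0.0677 for Uqcrb, -0.0142 for Uqcr10, -0.025 for Atp5f1c, -0.0815 for Atp5f1e, -0.0454 for Atp5mc1 and -0.0145 for Atp5mg. Quantile normalization gave -0.154 for Uqcrb and -0.00284 for Atp5mf. Array weights gave -0.0245 for Uqcrc2, -0.126 for Uqcrb, -0.0386 for Atp5f1c, -0.104 for Atp5f1e and -0.024 for Atp5mc1. Averaging all tested probe sets of a gene gave -0.0822 for Uqcrc2, -0.0237 for Uqcr10, 0.114 for Atp5f1a, -0.0656 for Atp5f1c and -0.0491 for Atp5mf.

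With arrays left out, ranges that crossed 0 were -0.0462 to 0.182 (Sdhb), -0.391 to 0.294 (Uqcrc1), -0.19 to 0.19 (Uqcrc2), -0.2 to 0.0962 (Uqcrfs1), -0.147 to 0.204 (Uqcrb), -0.0118 to 0.179 (Uqcr10), -0.0415 to 0.251 (Uqcr11), -0.019 to 0.297 (Cycs), -0.327 to 0.0452 (Atp5f1b), -0.0269 to 0.171 (Atp5f1c), -0.112 to 0.147 (Atp5f1e), -0.0902 to 0.179 (Atp5mc1), -0.0344 to 0.272 (Atp5mf) and -0.0827 to 0.179 (Atp5mg). These include the fit without both wild-type replicate 3 and D257A replicate 2, added after seeing the data, which gave the low ends for Atp5f1c and Atp5mg and called 574 probe sets.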
